A study of Mus musculus with 47 samples.

Results

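The 7 genes described here encode proteins that goblet cells secrete or use to fold mucins: Agr2, Fcgbp, Tff2, Clca1, Itln1, Bpifb1 and Fer1l6. They were chosen by name, with earlier results of these data known. Every probe set annotated to them was taken from all 6 array tables of the series. This gave 15 probe sets of 49438 and 7 genes of 16366 with a symbol of their own. Some of these probe sets lie on several tables, so that the genes have 23 sets of values. RNA of mouse lung was measured on Affymetrix murine U74 arrays, on which a probe set is a group of short probes read as 1 intensity. In the ragweed groups mice received ragweed pollen protein with alum, an adjuvant, on days 0 and 3 to sensitize them and were challenged through the trachea with the same protein on days 10 and 17, and the lungs were taken 24 h or 72 h afterwards. In the PBS groups PBS took the place of ragweed at the same days and times. The labels name alum for the ragweed mice alone, so alum and ragweed cannot be told apart in any difference given here. The labels give no strain, age or sex. Each of the 4 groups (ragweed 24 h, PBS 24 h, ragweed 72 h, PBS 72 h) has 2 samples, 1a and 1b. Whether 1a and 1b come from different animals is not stated, so each p-value reflects how far these pairs of samples lie apart, a spread that may be technical.

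Goblet cells make and release the mucus of the airways, and in mice they are scarce in healthy bronchi and become numerous in allergic inflammation, in response to interleukin 13. Mucins are folded and joined by disulfide bonds in the endoplasmic reticulum, packed with other secreted proteins into granules and released onto the airway surface. The genes fall into roles along that path. Agr2 is the disulfide isomerase that mucins need for folding. Fcgbp, Tff2 and Clca1 are secreted with the mucins, Itln1 is a lectin and Bpifb1 a lipid-binding protein of the airway lining, and Fer1l6 belongs to the ferlins, membrane proteins of which other members act in vesicle fusion. In whole lung, more goblet cells and more RNA in each goblet cell cannot be told apart.

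Each of the 3 arrays of the set (A, B and C) exists in a first version and a version 2. The first version was followed by version 2 because part of its probes had been designed on the wrong strand. The main comparison used first-version A, which holds all 4 groups, and version 2 B and C. From first-version A it took only the 9977 probe sets whose ID is also on version 2 A. The floor was the 40th percentile of the values taken from a table, an intensity of 291.8 on A, 356.4 on B and 244.7 on C. Lower values were raised to it for the fit, and the values printed here are those before that step. Differences are on the log2 scale, ragweed minus PBS, with the standard error (SE) of a limma fit and n = 2 samples per group. Adjusted p-values are Benjamini-Hochberg values over all 25250 probe sets tested, and a difference is called where the adjusted p is under 0.05. A letter in the name of a probe set carries a warning: _f_ marks probes that may match related genes, and _r_ a probe set made under relaxed rules.

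Promoter sequences are shown because several of these genes moved together in the samples. The RefSeq promoter table (GRCm38.p6) holds windows for Agr2, Fcgbp, Itln1 and Bpifb1, the last with 2 start sites. The 250 bases before the start of Agr2 and of Fcgbp, and before the downstream start of Bpifb1, are printed 5′ to 3′, with motif matches in capitals.
Agr2, chr12:35992675-35992924, + strand: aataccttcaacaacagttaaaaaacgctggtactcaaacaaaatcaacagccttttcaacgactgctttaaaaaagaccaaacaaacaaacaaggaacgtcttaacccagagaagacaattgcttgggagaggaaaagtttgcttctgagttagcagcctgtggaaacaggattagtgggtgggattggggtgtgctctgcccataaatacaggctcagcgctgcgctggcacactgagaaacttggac
Fcgbp, chr7:28070986-28071235, + strand: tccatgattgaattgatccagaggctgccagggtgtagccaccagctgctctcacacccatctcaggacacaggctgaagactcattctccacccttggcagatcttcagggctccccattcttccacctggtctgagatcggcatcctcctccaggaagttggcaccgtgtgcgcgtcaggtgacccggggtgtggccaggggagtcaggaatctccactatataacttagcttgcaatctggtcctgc
Bpifb1, chr2:154200130-154200379, + strand: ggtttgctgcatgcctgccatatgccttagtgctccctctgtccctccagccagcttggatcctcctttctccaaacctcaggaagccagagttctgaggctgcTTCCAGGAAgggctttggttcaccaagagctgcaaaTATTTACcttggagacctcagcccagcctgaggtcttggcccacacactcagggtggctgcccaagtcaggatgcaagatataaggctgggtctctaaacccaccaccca
The letters searched, on both strands, were TTCNNNNGAA (the spacing that STAT6 prefers), TTCNNNGAA (that of other STAT factors), TGTTTAC or TATTTAC (forkhead factors), TGACGTGG (unfolded protein response) and TATAAA. The downstream Bpifb1 window held 1 match to TTCNNNGAA, 146 to 138 bases before the start, and 1 to TATTTAC, 110 to 104 bases before it. These matches do not overlap. The other 4 windows held no match to any of these letters. Of all 32851 windows of this length, 5.85% held TTCNNNNGAA, 7.02% TTCNNNGAA, 5.76% a forkhead word, 0.563% TGACGTGG and 12.4% TATAAA.

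At both times 5 of the 7 genes were higher in ragweed than in PBS lungs: Agr2, Fer1l6, Fcgbp, Tff2 and Bpifb1. Itln1 was about as much higher at 24 h as at 72 h but did not pass the threshold, and Clca1 gave no called difference on the probe sets of the main tables. Over all 25250 probe sets tested, 0.23% were called at 24 h and 0.527% at 72 h. Of the 8 probe sets of these genes on the main tables, 5 were called at each time, all higher in ragweed. The median over the 7 genes was 2.61 at 24 h and 1.77 at 72 h. Over 12875 genes it was 0 at each time. The genes were chosen with earlier results of these data known, so these contrasts are not independent support. The plot of intensities by sample leaves out Clca1, whose probe set 100623_at lay lower in ragweed than in PBS lungs at 24 h. In the 6 panels plotted every ragweed sample lies above every PBS sample of the same time. With 2 samples a group, groups can lie apart where there is no real difference. The share of all probe sets that separate in this way is not given here. A list of 9 club cell markers (the secretory cells of the bronchioles) had a summed intensity at 24 h of 111180 and 118748 in ragweed lungs, against 58967 and 63453 in PBS lungs. At 72 h the sum was 105538 and 107727 in ragweed lungs, against 115786 and 125748 in PBS lungs. Most of that sum at 24 h came from Scgb1a1, the main secreted protein of club cells, with 71369 and 80301 in ragweed lungs, against 30618 and 32340 in PBS lungs. First-version A was quantile normalized, so equal ranks share a value, and Scgb1a1 had 80301 and 71369 in PBS lungs at 72 h too. Of the 8 club cell genes tested, 3 were called higher in ragweed at 24 h: Scgb1a1 by 1.27 ± 0.12, Cyp2f2, a cytochrome P450, by 0.65 ± 0.09 and Gsto1, a glutathione transferase, by 1.08 ± 0.13. At 72 h Gsto1 was called higher (1.23 ± 0.13) and Cyp2f2 lower (-0.81 ± 0.09). Scgb3a2 differed by 1.08 ± 0.30 at 24 h and by -1.32 ± 0.30 at 72 h, neither called (limma, adjusted p = 0.261 and 0.104). Aldh1a1, Cckar, Upk3a and Cbr2 differed by 0.05 to 0.19 at 24 h without a call. The list had medians of 0.42 at 24 h and -0.13 at 72 h. The part of these markers in the differences of the 7 genes was not tested.

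**Figure D1:**
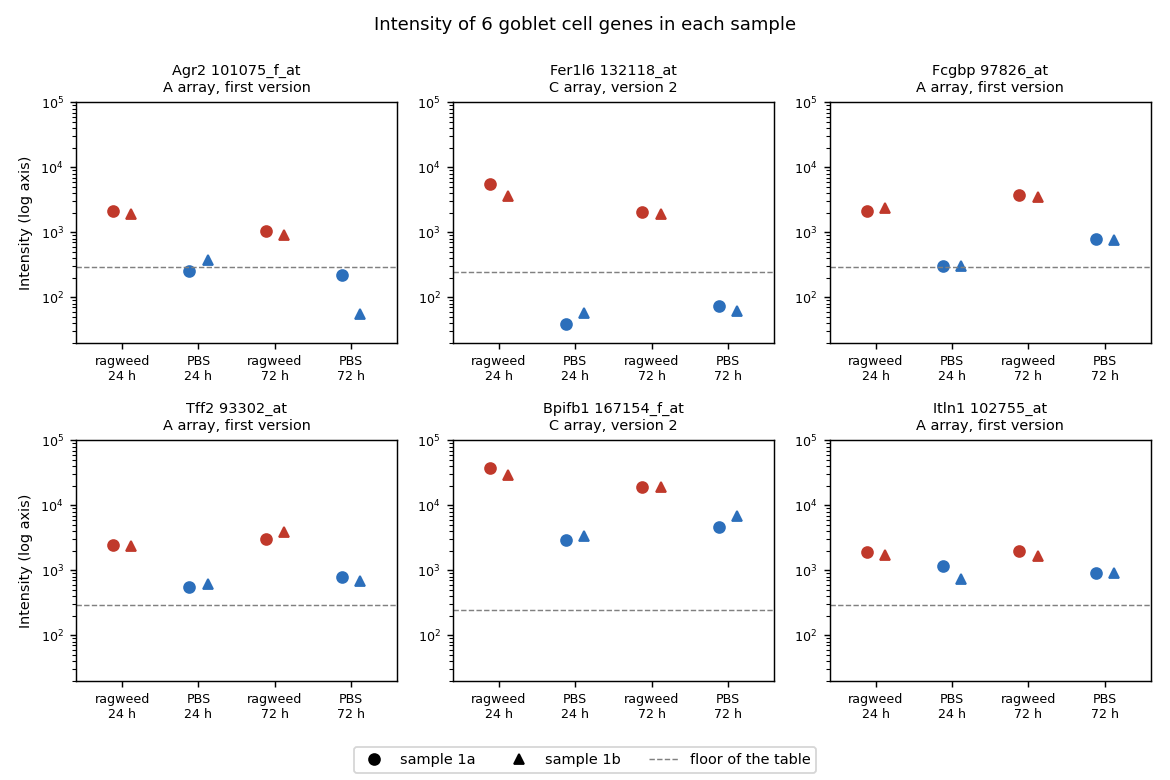
Intensity (log axis) of Agr2, Fer1l6, Fcgbp, Tff2, Bpifb1 and Itln1 in each of the 8 samples of the main tables, circles for sample 1a and triangles for 1b, with the floor of the table dashed. The ragweed samples lie above the PBS samples of the same time in all 6 panels, and the Fer1l6 values of PBS lie below the floor.

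Agr2 (101075_f_at; gene ID 23795, chromosome 12, 35992925 to 36004081 in GRCm38.p6) had intensities of 2149 and 1941 in ragweed lungs at 24 h, against 254 and 382 in PBS lungs. At 72 h it had 1061 and 914 in ragweed lungs, against 220 and 56 in PBS lungs. The groups did not overlap at either time, and 3 of the 4 PBS values lay under the floor. Agr2 rose by 2.61 ± 0.26 at 24 h, a 6.12-fold difference (limma, adjusted p = 0.00528). At 72 h it rose by at least 1.76 ± 0.26 (limma, adjusted p = 0.0298). The ragweed values at 72 h lay below those at 24 h, but that difference did not pass (-1.05 ± 0.26, limma, adjusted p = 0.196). Version 2 A, which has no ragweed 24 h arrays among those analysed here, gave 630 and 696 in ragweed lungs at 72 h, against 137 and 252 in PBS lungs, a difference of 1.44 ± 0.23 (limma within that table, adjusted p = 0.0337). The other Agr2 probe sets were dim: 101076_r_at ran from 161 to 306 in ragweed lungs and from 152 to 230 in PBS lungs on first-version A and between 23 and 136 in all samples on version 2 A, and 162200_r_at lay between 1.4 and 7.8 on version 2 A. Neither was tested in the main comparison or on version 2 A. With all probe sets of first-version A fitted alone, 101076_r_at differed by 0.18 ± 0.20 at 24 h and 0.19 ± 0.20 at 72 h. Neither difference was called (limma within that table, adjusted p = 0.826 and 0.768). The 72 h call of 101075_f_at is the less stable one. It was lost with either ragweed sample of 24 h or 72 h or either PBS sample of 72 h left out (limma, adjusted p from 0.0792 to 0.191), and the 24 h call was lost without either ragweed 24 h sample (limma, adjusted p = 0.0701 in each case).

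Fer1l6 (132118_at; gene ID 631797, chromosome 15, 58510048 to 58665087) was the gene with the largest difference of the 7 at each time on the main tables. Its version 2 C intensities were 5523 and 3690 in ragweed lungs at 24 h, against 39 and 58 in PBS lungs. At 72 h they were 2048 and 1952 in ragweed lungs, against 74 and 62 in PBS lungs. All PBS values lay under the floor and all ragweed values far above it. The difference was therefore a lower bound, at least 4.21 ± 0.40 at 24 h (limma, adjusted p = 0.00377) and at least 3.03 ± 0.40 at 72 h (limma, adjusted p = 0.0175). Samples at the floor show no spread of their own in the fit, so these errors may be too small. The probe set also passed the filter through the ragweed samples alone, so its calls are not independent of that selection. The same probe set on first-version C gave 2943 and 3567 in ragweed lungs at 24 h, against 268 and 325 in PBS lungs, and 2285 and 2441 in ragweed lungs at 72 h, against 351 and 204 in PBS lungs. That table alone gave 3.45 ± 0.41 at 24 h (limma, adjusted p = 0.0296) and 2.98 ± 0.41 at 72 h (limma, adjusted p = 0.158). It called 0.0523% of its probe sets at 24 h and 0.0105% at 72 h. In the main fit the 24 h call was lost without either ragweed 24 h sample (limma, adjusted p = 0.0701 and 0.0525). The 72 h call was lost without any single ragweed sample or PBS 72 h sample (limma, adjusted p from 0.0566 to 0.168).

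Fcgbp (97826_at; gene ID 215384, chromosome 7, 28071236 to 28120864), a large mucus protein named for its binding to IgG Fc, had 2159 and 2384 in ragweed lungs at 24 h, against 307 and 305 in PBS lungs. At 72 h it had 3710 and 3478 in ragweed lungs, against 797 and 762 in PBS lungs. Both pairs of replicates lay close together and far apart from the other group. Fcgbp rose by 2.89 ± 0.16 at 24 h, 7.41-fold (limma, adjusted p = 2.06e-04), and by 2.20 ± 0.16 at 72 h, 4.61-fold (limma, adjusted p = 0.00133). Both calls held with each of the 8 samples left out in turn. On version 2 A the same probe set gave 5013 and 4737 in ragweed lungs at 72 h, against 357 and 525 in PBS lungs, a difference of 3.49 ± 0.22 (limma within that table, adjusted p = 0.00148). A second probe set on that table, 162286_r_at, gave 3441 and 2281 in ragweed lungs, against 213 and 444 in PBS lungs, a difference of 3.11 ± 0.38 (limma, adjusted p = 0.0163).

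Fcgbp was also the 1 gene of the 7 called between the PBS groups on the main tables, where 0.281% of probe sets were called. On first-version A the PBS 72 h samples had the 797 and 762 given above, against 307 and 305 at 24 h, a difference of 1.35 ± 0.16 (limma, adjusted p = 0.0164). The version 2 A arrays gave 357 and 525 in PBS lungs at 72 h, against 451 and 402 at 24 h, and 0.03 ± 0.22 (limma within that table, adjusted p = 0.988). The difference was called on 1 array version and not on the other, and the versions were not tested against each other. Without any 1 of the 8 samples the difference on first-version A did not pass (limma, adjusted p from 0.0715 to 0.133). The 2 PBS groups differ in other ways on the main tables: in the club cell sums given above, and in the sum of 8 squamous epithelium markers, which was 34592 and 35713 in PBS lungs at 72 h, against 11529 and 13267 at 24 h. The squamous sum lay between 12486 and 15343 in ragweed lungs. Most of the squamous sum in PBS lungs came from Krt4, with 24122 and 25361 at 72 h, against 8127 and 6708 at 24 h. Of the 7 squamous genes tested, the keratins Krt4 (1.74) and Krt13 (1.59) were called higher in PBS lungs at 72 h than at 24 h. Sprr3 (1.13), Sbsn, a protein of squamous epithelium (1.02), Krt14 (-0.17), Krt6a (-0.23) and Ivl (-0.70) were not called. The median was 1.02. At 72 h Krt4 (-1.47 ± 0.13), Krt13 (-1.40 ± 0.13) and Sbsn (-1.62 ± 0.27) were called lower in ragweed than in PBS lungs. Sprr3 (-0.85), Krt14 (0.10), Krt6a (0.11) and Ivl (0.91) were not called there, and the median was -0.85. The part of these markers in the Fcgbp values was not tested.

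Tff2 (93302_at; gene ID 21785, chromosome 17, 31141062 to 31144282), a trefoil peptide best known from the mucous neck cells of the stomach, had 2475 and 2411 in ragweed lungs at 24 h, against 549 and 612 in PBS lungs. At 72 h it had 3057 and 3886 in ragweed lungs, against 790 and 680 in PBS lungs. Ragweed and PBS did not overlap, and all values were above the floor. Tff2 rose by 2.08 ± 0.18 at 24 h, 4.21-fold (limma, adjusted p = 0.00233), and by 2.23 ± 0.18 at 72 h, 4.70-fold (limma, adjusted p = 0.00169). Version 2 A gave 3286 and 2432 in ragweed lungs at 72 h, against 1033 and 697 in PBS lungs, a difference of 1.74 ± 0.29 (limma within that table, adjusted p = 0.0376). Its PBS samples at 24 h had 330 and 499. The 24 h call was lost without either ragweed 24 h sample (limma, adjusted p = 0.053 and 0.0525), and the 72 h call held with each sample left out. Stomach tissue would also carry Tff2. Of 8 gastric mucous and pit cell markers, 6 had probe sets on the main tables, 2 to 5 of them above the floor in a sample, and their summed intensity was 2300 to 4003 in ragweed lungs, against 2158 to 2920 in PBS lungs. Of the 5 tested, limma called none at either time, and 0 had an unadjusted p under 0.05 (medians 0 at 24 h and 0.50 at 72 h). The part of stomach tissue in the Tff2 values was not tested.

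Bpifb1 (gene ID 228801, chromosome 2, 154190818 to 154220343) is a secreted protein of the bactericidal/permeability-increasing family made by airway mucous cells. On version 2 C its probe set 167154_f_at had 38206 and 29824 in ragweed lungs at 24 h, against 2975 and 3413 in PBS lungs. At 72 h it had 19301 and 19237 in ragweed lungs, against 4688 and 6788 in PBS lungs. The ragweed values at 24 h ranked 15 and 18 on their arrays. Bpifb1 rose by 3.41 ± 0.22 at 24 h, 10.6-fold (limma, adjusted p = 3.79e-04), and by 1.77 ± 0.22 at 72 h, 3.42-fold (limma, adjusted p = 0.0136). The 24 h call held with each sample left out. The 72 h call was lost without either ragweed 72 h sample or without PBS 72 h sample 1a (limma, adjusted p = 0.149, 0.131 and 0.102). The ragweed effect at 72 h minus that at 24 h was -1.63 ± 0.31, and this difference between the times did not pass (limma, adjusted p = 0.256).

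The other Bpifb1 probe sets differed in brightness and in what was called. On version 2 A, 160446_at gave 8258 and 7121 in ragweed lungs at 72 h, against 2085 and 2122 in PBS lungs, a difference of 1.87 ± 0.12 (limma within that table, adjusted p = 0.00148). On first-version A, 98584_at, which carries the same transcript accession, lay between 68 and 87 in ragweed lungs and between 43 and 78 in PBS lungs, all under the floor. On first-version C, 140059_f_at gave 4802 and 6177 in ragweed lungs at 24 h, against 3063 and 1607 in PBS lungs, and 3918 and 4119 in ragweed lungs at 72 h, against 3169 and 2749 in PBS lungs. These groups did not overlap either, but the differences of 1.30 ± 0.30 at 24 h (limma, adjusted p = 0.492) and 0.44 ± 0.30 at 72 h (limma, adjusted p = 0.859) were not called. Like Fcgbp on first-version A, Bpifb1 was higher in PBS lungs at 72 h than at 24 h on version 2 A, where the 24 h samples had 1156 and 1242 (0.81 ± 0.12, limma within that table, adjusted p = 0.0421). That table called 0.796% of its probe sets between the PBS groups. On version 2 C the same difference was 0.82 ± 0.22 and was not called (limma, adjusted p = 0.299).

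**Figure D2:**
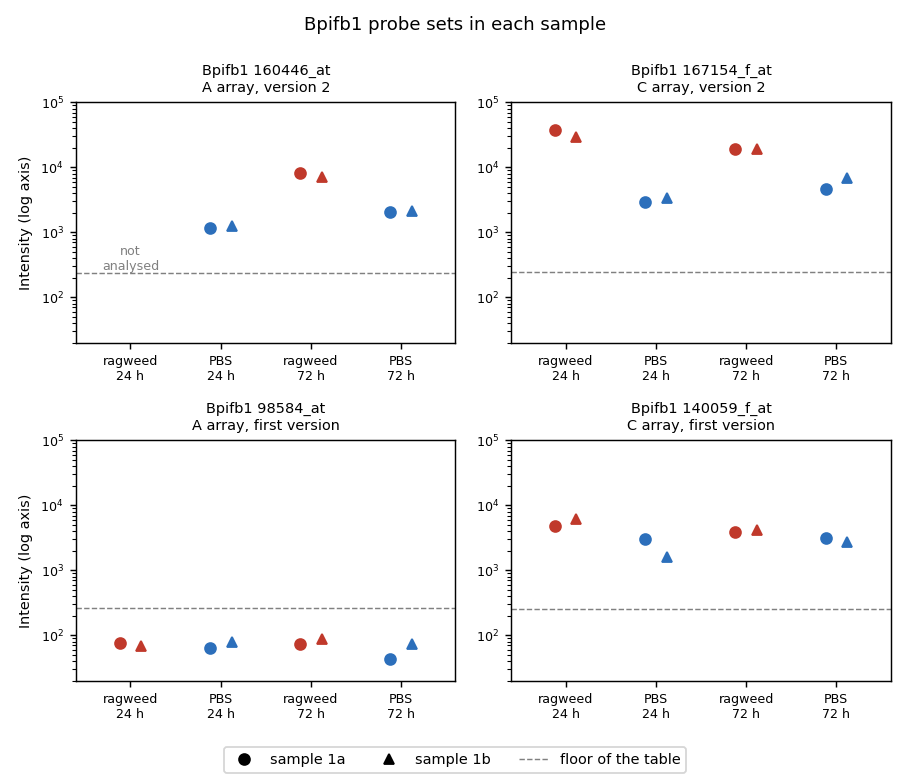
Intensity (log axis) of the 4 Bpifb1 probe sets in each sample, circles for sample 1a and triangles for 1b, with the floor dashed. The version 2 probe sets (top row) separate ragweed from PBS clearly, while 98584_at of first-version A lies under the floor in all 8 samples.

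Itln1 (102755_at; gene ID 16429, chromosome 1, 171518123 to 171535325), a secreted lectin that binds microbial sugars, had 1939 and 1709 in ragweed lungs at 24 h, against 1172 and 746 in PBS lungs on first-version A. At 72 h it had 1961 and 1672 in ragweed lungs, against 925 and 898 in PBS lungs. The groups did not overlap at either time. The differences of 0.96 ± 0.23 at 24 h (limma, adjusted p = 0.239) and 0.99 ± 0.23 at 72 h (limma, adjusted p = 0.160) did not pass. On version 2 A the ragweed values at 72 h were similar, 1730 and 2229, while the PBS values were lower, 345 and 494 at 72 h and 291 and 334 at 24 h. There the 72 h difference was 2.25 ± 0.26, 4.75-fold (limma within that table, adjusted p = 0.0149). Some mouse strains carry a further, near-identical intelectin gene, which the probe set may also read.

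Clca1 (gene ID 23844, chromosome 3, 145004537 to 145032776), a secreted protein of mucous cells that raises the activity of a calcium-activated chloride channel, gave the widest range of results by probe set. On version 2 A, 162287_r_at had 40632 and 32966 in ragweed lungs at 72 h, against 2782 and 429 in PBS lungs. The PBS samples of 24 h had 398 and 334. The ragweed values ranked 1 on their arrays. The difference was 5.07 ± 0.74, 33.5-fold (limma within that table, adjusted p = 0.0260), and PBS sample 1a at 72 h stood well above the other 3 PBS samples. Without PBS sample 1a the difference was 6.41, and without 1b it was 3.72, both called. It was lost without either ragweed 72 h sample or either PBS 24 h sample (limma, adjusted p from 0.0600 to 0.132). No value of this probe set at 24 h in ragweed lungs is given here, since those arrays were not analysed here.

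The other Clca1 probe sets stayed near the floor. On first-version A, 100623_at had 180 and 300 in ragweed lungs at 24 h, against 413 and 354 in PBS lungs, and 470 and 699 in ragweed lungs at 72 h, against 155 and 278 in PBS lungs. Ragweed thus lay below PBS at 24 h and above it at 72 h. Neither difference was called (-0.37 ± 0.22, adjusted p = 0.724, and at least 0.97 ± 0.22, adjusted p = 0.151, limma), nor was the difference between them (1.34 ± 0.31, limma, adjusted p = 0.394). The same probe set on version 2 A had 318 and 243 in ragweed lungs at 72 h, against 130 and 148 in PBS lungs, from the same arrays on which 162287_r_at ranked 1. On version 2 B, 104821_at had 241 and 337 in ragweed lungs at 24 h, against 418 and 124 in PBS lungs, and 650 and 297 in ragweed lungs at 72 h, against 115 and 561 in PBS lungs. The groups overlapped at both times, and the differences were -0.12 ± 0.31 (limma, adjusted p = 0.966) and 0.11 ± 0.31 (limma, adjusted p = 0.965). On first-version B it ran from 406 to 700 in ragweed lungs and from 192 to 736 in PBS lungs, and its differences of -0.54 ± 0.43 at 24 h and 0.69 ± 0.43 at 72 h were not called (limma, adjusted p = 0.871 and 0.842). That table called 0.0213% of its probe sets at 24 h and 0.0107% at 72 h.

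**Figure D3:**
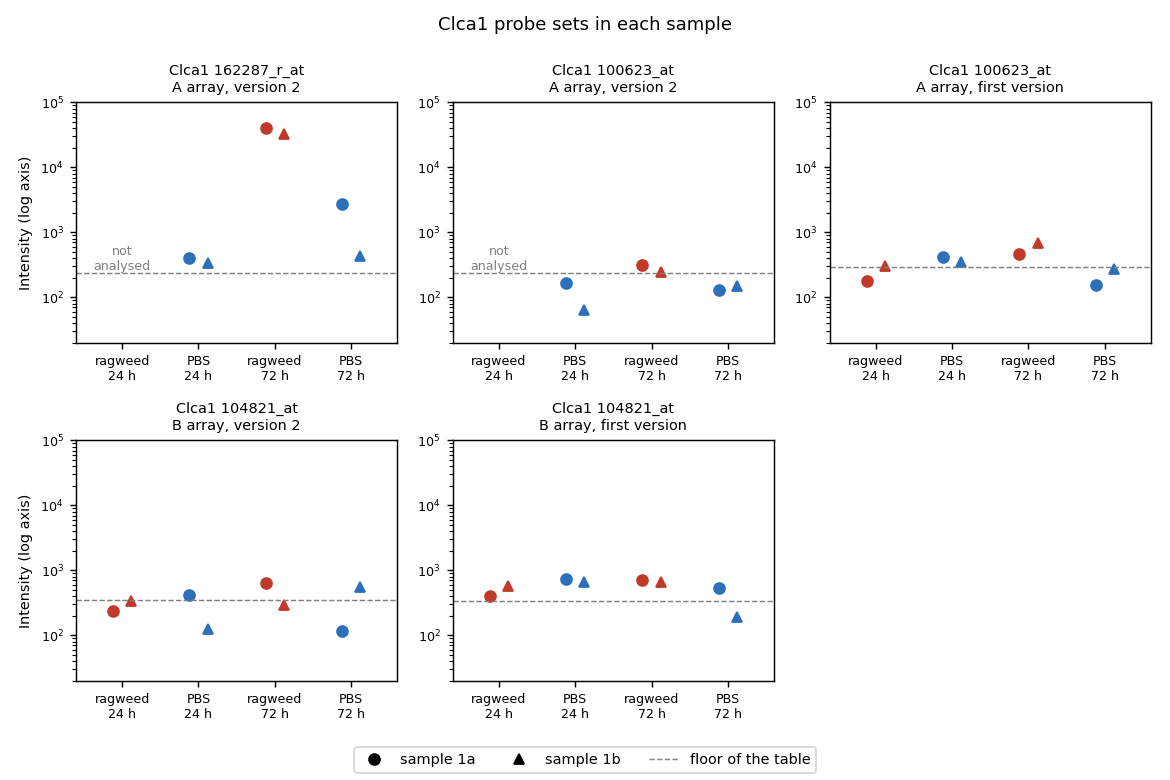
Intensity (log axis) of the Clca1 probe sets in each sample on each table that holds them, circles for sample 1a and triangles for 1b, with the floor dashed. At 72 h 162287_r_at reads 40632 and 32966 in ragweed lungs, against 2782 and 429 in PBS lungs, while 100623_at and 104821_at stay at or below 736 throughout.

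Across array versions, the 72 h comparison was complete on version 2 A. There 7 of 8 probe sets tested and all 6 genes present were called, all higher in ragweed, where 2.09% of the table's probe sets were called. These arrays differ in a measure of RNA quality. The ratio of the actin 3′ to 5′ probe sets was 0.801 and 0.578 in ragweed lungs at 72 h, against 0.189 and 0.198 in PBS lungs at 72 h and 0.535 and 0.437 in PBS lungs at 24 h. On first-version A it lay between 0.880 and 0.947 in ragweed lungs and between 0.798 and 0.968 in PBS lungs. On version 2 C, the main table for Fer1l6 and Bpifb1, the ratio was 1.60 and 1.43 in ragweed lungs at 24 h, against 1.08 and 0.993 in PBS lungs, and 1.11 and 1.39 in ragweed lungs at 72 h, against 0.869 and 0.861 in PBS lungs. On version 2 B it was 1.09 and 1.08 in ragweed lungs at 24 h, against 0.708 and 0.465 in PBS lungs, and 1.10 and 0.831 in ragweed lungs at 72 h, against 0.919 and 0.813 in PBS lungs. The ragweed samples thus lay above the PBS samples of the same time at 72 h on version 2 A, at both times on version 2 C and at 24 h on version 2 B. The part of this ratio in the differences of the 7 genes was not tested. With 1 sample left out, 2 to 4 of the 6 genes stayed called on version 2 A. Fcgbp (97826_at) and Bpifb1 (160446_at) were called in all 6 of these fits, and Agr2 and Tff2 in none of them (limma, adjusted p from 0.0609 to 0.166 and from 0.055 to 0.141).

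**Figure D4:**
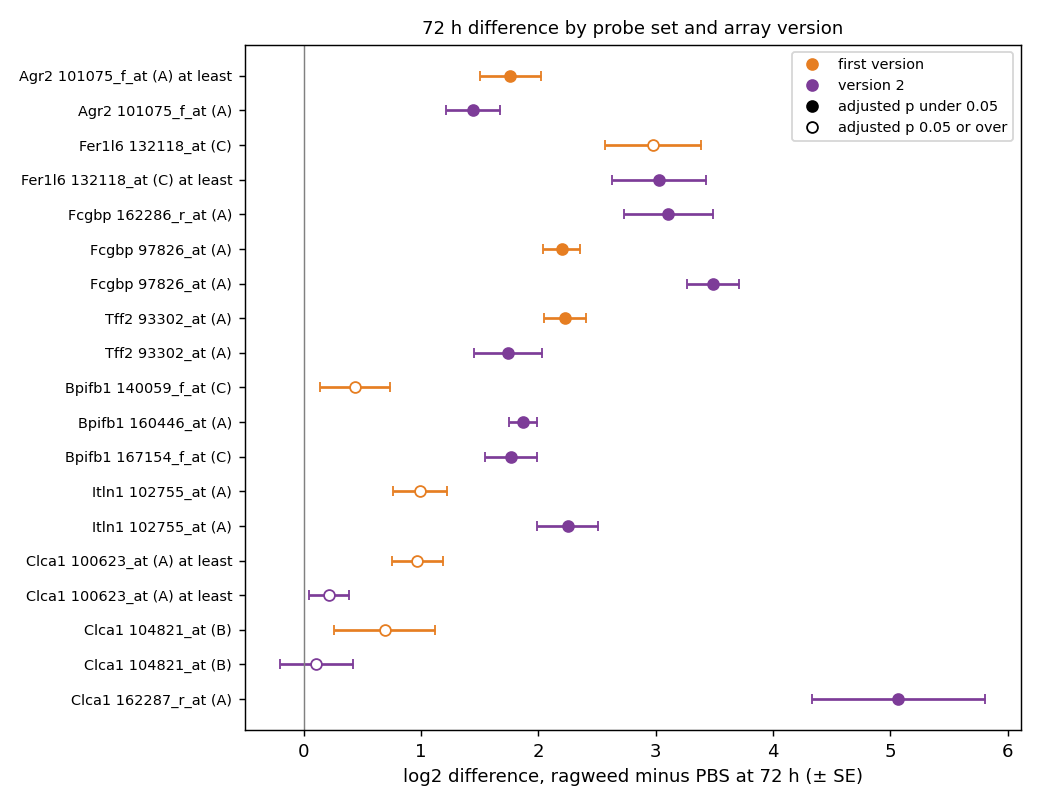
Difference between ragweed and PBS lungs at 72 h (log2, ± SE) for each tested probe set, orange for the first version and purple for version 2, filled where the adjusted p was under 0.05. The letter in brackets is the array, and "at least" marks a lower bound. Fcgbp, Tff2 and Agr2 lie well above 0 on both versions, and the Clca1 probe sets run from 0.11 to 5.07.

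No probe set of the 7 genes was called by limma between ragweed lungs at 72 h and at 24 h, where 0.305% of all probe sets were, and 6 of the 8 had an unadjusted p under 0.05, as had 2680 of all 25250 probe sets. Fcgbp was higher at 72 h by 0.66 ± 0.16 (limma, adjusted p = 0.196) and Tff2 by 0.50 ± 0.18 (limma, adjusted p = 0.357). Fer1l6 was lower at 72 h by 1.18 on the log2 scale (-1.18 ± 0.40, limma, adjusted p = 0.328) and Bpifb1 likewise (-0.81 ± 0.22, limma, adjusted p = 0.237). The difference of the ragweed effect between the times was called for 0.0356% of probe sets and for none of these genes, 4 of whose 8 probe sets had an unadjusted p under 0.05 in limma, as had 1857 of all 25250.

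Other genes of mucus secretion were read from lists of known function, 1 probe set a gene, of which 0.365% of 12875 were called at 24 h and 0.645% at 72 h. Of 20 goblet cell products 9 could be tested, and 3 rose at both times: Muc5b, a gel-forming mucin of the airways, Reg3g, an antimicrobial lectin, and Pigr, the receptor that carries IgA across epithelium. Muc5b (165954_f_at) rose by 3.83 ± 0.18 at 24 h and 1.72 ± 0.18 at 72 h, Reg3g by 3.01 ± 0.19 and 1.55 ± 0.19, and Pigr by 1.79 ± 0.10 and 1.40 ± 0.10. PBS lungs at 72 h were themselves called higher than at 24 h for Muc5b (1.97, limma, adjusted p = 0.00542) and Reg3g (1.28, limma, adjusted p = 0.0449), while ragweed lungs at 72 h differed from those at 24 h by -0.14 for Muc5b and -0.18 for Reg3g, neither called. Capn9, a calpain of mucous cells, differed by 1.60 ± 0.26 at 24 h without passing (limma, adjusted p = 0.0740), and Retnlb, a resistin-like goblet cell peptide, by 1.01 ± 0.24 at 72 h. Retnlb differed by 0 between the PBS groups, as values raised to the floor do, so its 1.01 may be a lower bound. The medians of the list were 0.64 at 24 h and 1.01 at 72 h. Muc5ac, Tff1 and Tff3 have probe sets on the arrays but none that could be tested on the main tables.

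No gene of the machinery around these products was called by limma at either time. Of 11 regulators of goblet cells, 2 at 24 h and 1 at 72 h had an unadjusted p under 0.05, with medians of 0.28 and 0.10. These were Spdef, the factor that drives goblet cell differentiation in mice, at 0.43 ± 0.14 at 24 h, Creb3l1, a membrane-bound transcription factor, at 0.53 ± 0.13 at 24 h, and Foxa2, a forkhead factor that restrains mucus genes in mouse airways, at -1.19 ± 0.39 at 72 h. Spdef differed by 0 at 72 h and by 0 between the PBS groups, as values raised to the floor do. Its 0.43 may therefore be a lower bound. Egfr, the epidermal growth factor receptor, differed by 0.56 ± 0.56 at 24 h. Of 12 enzymes of mucin O-glycosylation, 2 at 24 h and 0 at 72 h had such an unadjusted p (medians 0.13 and 0.15). The largest differences there were 0.90 ± 0.48 for Fut2, a fucosyltransferase, and -0.75 ± 0.53 for C1galt1, which makes the core 1 sugar, both at 24 h. Of 15 folding proteins of the endoplasmic reticulum, 5 at 24 h and 8 at 72 h had one (medians -0.01 and 0.39), against 1165 and 1365 of all 12875 genes. Manf, a folding factor induced by endoplasmic reticulum stress, at 0.94 ± 0.16, and P4hb, a disulfide isomerase, at -0.84 ± 0.24, differed most, both at 72 h (limma, adjusted p = 0.0596 and 0.267). Between the PBS groups 3 of the 15 were called lower at 72 h than at 24 h: Manf (-1.42, limma, adjusted p = 0.0121), Hspa5, the main chaperone of the endoplasmic reticulum (-1.25, adjusted p = 0.0208), and Pdia6, a disulfide isomerase (-1.19, adjusted p = 0.0169). In ragweed lungs Manf differed by -0.04 between the times, and at 24 h ragweed minus PBS was -0.44 ± 0.16, not called (limma, adjusted p = 0.471). Of 9 genes of granule release, 1 at 24 h and 0 at 72 h had an unadjusted p under 0.05 (medians -0.17 and 0.18), and of 7 relatives of the 7 genes, 0 and 1 (medians 0.08 and -0.10). The largest differences among the granule genes were -0.54 ± 0.29 for Unc13d, a priming factor of granule release, and -0.42 ± 0.15 for Marcks, a substrate of protein kinase C, both at 24 h. Among the relatives they were 0.94 ± 0.51 at 24 h for Clca4a, a homologue of Clca1, and -0.49 ± 0.18 at 72 h for Otof, a ferlin.

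**Figure D5:**
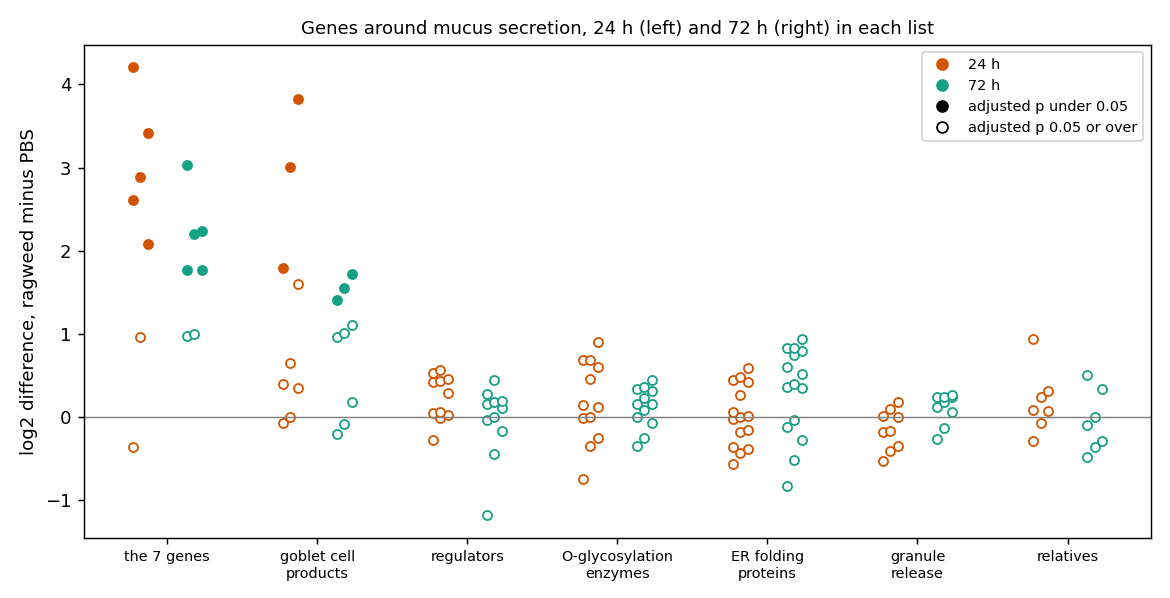
Difference between ragweed and PBS lungs (log2) of every gene tested among the 7 genes and the 6 lists of mucus secretion, 24 h in orange and 72 h in green, filled where the adjusted p was under 0.05. Of the lists plotted, which leave out the cell type markers, the 7 genes and the goblet cell products hold filled points and the other 5 hold none.

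The intensities of 6 of the 7 genes varied together over the 8 samples, with Pearson's r between pairs from 0.792 to 0.988 on the log2 scale, while Clca1 (100623_at) gave 0.072 to 0.461 with the others. The samples form groups that differ, so these are descriptions of a shared ragweed difference. Over the 8 samples, the genes with the profile most like the mean of the 7 were Chil3, a chitinase-like protein of macrophages, with r of 0.994, Car2, a carbonic anhydrase, with 0.989, Fcgr2b, an inhibitory IgG receptor, with 0.979, Slco4c1, an organic anion transporter, with 0.977, and Retnla, a resistin-like macrophage protein, with 0.975. Pigr followed with 0.971. Taken singly, Agr2 lay nearest to Arg1, the arginine-degrading enzyme of macrophages (0.986), Fer1l6 to Slco4c1 (0.986), Fcgbp to Pigr (0.992), Tff2 to Ccl8, a chemokine (0.987), Bpifb1 to Mrc1, the mannose receptor of macrophages (0.985), Itln1 to Scin, an actin-severing protein (0.978), and Clca1 (100623_at) to Ptpn2, a tyrosine phosphatase (0.976). Lung identity of the samples was read from Scgb1a1, Sftpc, Ager and 3 further lung genes, whose summed intensity was 149594 to 168858 in ragweed lungs and 140473 to 167365 in PBS lungs. Intestinal markers, of a tissue that also makes Agr2, Fcgbp and Itln1, were summed over 7 genes, with at most 2 of them above the floor in a sample. At 24 h the sums were 1405 and 1087 in ragweed lungs, against 897 and 767 in PBS lungs. At 72 h they were 586 and 797, against 629 and 967. The 1 gene tested, Sis, had 749 and 557 in ragweed lungs at 24 h, against 80 and 49 in PBS lungs. Its difference of at least 1.40 ± 0.30 was not called (limma, adjusted p = 0.181). The part of these markers in the differences of the 7 genes was not tested.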

How the data were processed

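The files hold 1 linear intensity per probe set and array, as the authors deposited it, and the sources used here do not name the software behind it. Version 2 arrays and first-version ragweed arrays had been deposited at a 2% trimmed mean near 800 and first-version PBS arrays had not, so first-version arrays were scaled to 800 and quantile normalized on log2 intensity, and version 2 tables kept the deposited intensity. An additional first-version A array labelled ragweed 24 h equalled 1a divided by a constant and was left out. For the main comparison first-version A was cut, before scaling, to the 9977 probe sets whose ID is also on version 2 A. Values under the floor were raised to it, and control probe sets were left out. Probe sets exceeding the floor on 2 or more arrays entered the fit, 6896 from A, 9190 from B and 9164 from C. The fits used limma 3.58.1 (R 4.3.3), table by table (1 mean per group, 4 residual degrees of freedom, eBayes with a trend, tested on simulated data), and the p-values of the 3 tables were adjusted together. The other tables were fitted alone and adjusted within the table (3 residual degrees of freedom on version 2 A). The number of arrays limits the precision, with a median SE of 0.32.

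Symbols came from the platform annotation, updated by gene ID (the Fer1l6 probe set of first-version C through the same ID on version 2), and positions from RefSeq (GRCm38.p6). Genes named were all probe sets of the 7 genes, from each list of function the called members and the 2 with the largest difference, from the club cell and squamous marker lists the called members, and by Pearson's r over 8 samples the 10 genes nearest to the mean of the 7 and the 3 nearest to each. Of the nearest genes 6 of the 10 and 1 for each gene are given. Spdef, Creb3l1, Retnlb, Capn9, Hspa5, Pdia6, Sis and the uncalled club cell and squamous genes were named after their values were seen. The 7 genes and the lists were chosen with earlier results of these data known. The alternatives were the floor, the filter, the normalization, the trend, adjustment within tables and the PBS group used. Others were the other array version, all probe sets of first-version A, a replicate block and leaving out each sample. The letters 1a and 1b showed no sign of pairing samples. The difference between them correlated between groups with r from -0.046 to 0.035 across probe sets, which are not independent replicates. Such values over all probe sets cannot exclude a pairing.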

Additional observations from a re-analysis of the deposited data

How the results depend on the processing

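Some calls held under every alternative that keeps all samples and gives a value for the same probe set. These were Fcgbp (97826_at) at both times and Tff2, Fer1l6 and Bpifb1 (167154_f_at) at 24 h. The other array version reads Bpifb1 at 24 h by 140059_f_at, which was not called (1.30, limma within that table, adjusted p = 0.492). Agr2 at 24 h missed the threshold with the floor at the 20th percentile (2.71, adjusted p = 0.0522). At 72 h Agr2 missed it with the floor at the 60th percentile (0.70, 0.152), with no filter (0.0627), under the replicate block (0.0687) and on the other array version with pooled adjustment (1.44, 0.0937), where Tff2 missed it too (1.74, 0.104) and Itln1 passed it (2.25, 0.0394). Bpifb1 at 72 h missed it with no filter (0.0840), with no trend (0.101) and when adjusted within each table (0.101), as did Fer1l6 in the last case (0.101). The Clca1 differences near 0 changed sign: 104821_at at 24 h with the floor at the 20th percentile (0.30) and at 72 h without ragweed sample 1a (-0.33) or PBS sample 1a (-0.22; from -0.33 to 0.54 over the samples left out), and 100623_at at 24 h against PBS of 72 h (0.02). The Fcgbp difference between the PBS times was 0.36 with the floor at the 60th percentile (adjusted p = 0.522). The causes were not tested.

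With no filter on dim probe sets, 121 probe sets were called at 24 h, 152 between the ragweed times, 118 between the PBS times and 123 for the difference of the effects, with 3 of the 7 genes at 72 h and 2 of 6 on version 2 A. Asking for 4 arrays over the floor, the counts were 101 at 24 h, 107 between the PBS times and 20 for the difference of the effects. Adjusted within each table they were 91 at 24 h, 127 between the ragweed times and 23 for the difference, with 3 of the 7 genes at 72 h. With no trend they were 80 at 72 h, 43 between the ragweed times, 32 between the PBS times and 4 for the difference. On the other array version they were 6 at 24 h, 64 at 72 h, 41 between the PBS times and 0 for both other contrasts, with 1 of 3 genes at 24 h. With PBS of the other time as control 236 were called at 72 h, and with PBS of both times 238. The floor at the 20th percentile left 42 between the ragweed times, and the floor at the 60th 14 for the difference. The replicate block, whose letters are not known to pair samples, left 90 at 72 h and 47 between the ragweed times. It left 59 between the PBS times and 8 for the difference. At 72 h it left 4 of the 7 genes, and 5 of 6 on version 2 A, where Tff2 missed the threshold (0.0532). This Tff2 call and that of Agr2 at 72 h were the only calls of the 7 genes that the replicate block changed.

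With 1 sample left out, the counts ranged from 22 to 41 at 24 h, from 25 to 87 at 72 h, from 2 to 47 between the ragweed times, from 2 to 39 between the PBS times and from 0 to 10 for the difference of the effects. Of the 7 genes, 2 to 5 were called at each time, and of the 6 on version 2 A, 2 to 4. Where this left a group with 1 sample, that sample was taken to vary like the other groups. On version 2 A alone, Clca1 (162287_r_at) also missed the threshold with no filter (0.215) and with no trend (0.0509), and the settings chosen after seeing the data (quantile normalization of that table, and first-version C scaled without it) changed no call of these genes. With 2 samples a group and values at the floor, small differences could not be detected at this signal.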
